A study of Mus musculus with 2 samples.

Results

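Intermediate filament genes encode the rod-shaped proteins that form the tough, non-polar filaments of the cytoplasm and the lamina under the nuclear envelope. The 10 genes described here were chosen by name: the simple epithelial keratins Krt7, Krt8, Krt18 and Krt19, the type III proteins Vim (vimentin) and Des (desmin), Nes (nestin), and the lamins Lmna, Lmnb1 and Lmnb2. All 10 had at least 1 probe set on the array, 23 probe sets in total, and they are 10 of 18193 genes with a named probe set. The values come from Flk1+Tie2+ cells, sorted by flow cytometry on day 5 from embryoid bodies, aggregates in which embryonic stem cells differentiate. Both cultures were A2lox.Mesp1 mouse embryonic stem cells of the 129/Ola background, which carry a Mesp1 gene that doxycycline (dox) switches on, and Flk1 and Tie2 are the surface receptors encoded by Kdr and Tek. The dox culture was exposed to 250 ng/mL of the drug, added on day 2 and withdrawn on day 4, and the other culture received no dox. Each group is 1 array, so no difference below has a replicate check or a p-value. No dox-treated culture without the transgene was analysed here, so the effects of dox and of Mesp1 cannot be told apart.

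As background, keratins assemble only as pairs of a type I and a type II chain, and Krt8 (type II) with Krt18 (type I) is the pair that appears first in the embryo and later marks single-layered epithelia and mesothelium. Krt19 (type I) and Krt7 (type II) can join or replace them. Vimentin is the filament of mesenchymal and endothelial cells, desmin that of muscle, and nestin is found in neural and muscle progenitors and in young, dividing endothelium. Lamins A and C come from Lmna and increase as cells differentiate and stiffen, while the B-type lamins from Lmnb1 and Lmnb2 are present in nearly all cells, and Lmnb1 declines in cells that have stopped dividing for good.

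With dox, 3 of the 4 simple keratins, Krt8, Krt18 and Krt19, were higher by more than 2-fold, and 5.69% of all genes past the signal filter had a positive difference of 2-fold or more. Nes was lower by about that amount, where 2.06% of all genes had a negative difference of 2-fold or more. Vim was bright and nearly even, the lamins differed by less than 2-fold, and Krt7 and Des were dim on both arrays. Signals are in the arbitrary linear units of the deposited table, and differences are given as log2(signal + 16) with dox less the same quantity without dox, a scale that understates the change of dim genes. Folds come from these log2 differences, so for dim genes they are smaller than the ratio of the printed signals. A gene is represented by its brightest probe set over both arrays, and it passed the signal filter when at least 1 of its signals reached the median of that array, which was 127 with dox and 112 without dox. Dividing each array by its median would lower every log2 difference of a bright gene by 0.18, under which the small positive values given below for Vim and Lmna become -0.15 and -0.14. The calls over all genes, 671 higher and 243 lower (73.4% higher), would then be 529 higher and 402 lower (56.8% higher).

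The keratin genes Krt8 and Krt18 are neighbours, with no other protein-coding gene between them in RefSeq (assembly GRCm38.p6). Krt7 lies on the same chromosome among other keratin genes. Promoter windows from RefSeq, from 250 bases before to 50 bases after a start site, were used for 8 of the 10 genes, and no window of Krt19 or Lmnb1 was used here. The windows of the neighbouring pair that was higher with dox and of the simple keratin that stayed dim are printed so that they can be compared. Their places are chr15:102004293-102004592 on the minus strand for Krt8, chr15:102027966-102028265 on the plus strand for Krt18 and chr15:101412153-101412452 on the plus strand for Krt7. Capitals mark every match on either strand to any of several short motifs. CANNTG is the E-box, the kind of site that Mesp1 and other bHLH factors bind. AGATAA stands for the sites of GATA factors. TGANTCA was searched for the AP-1 factors. GGAATG was searched for the TEAD factors that act with YAP. GGGCGG is known as the GC box and is bound by Sp1. TATAAA was searched as the core promoter element of that name, and the CArG box of SRF was searched by its usual definition.
Krt8: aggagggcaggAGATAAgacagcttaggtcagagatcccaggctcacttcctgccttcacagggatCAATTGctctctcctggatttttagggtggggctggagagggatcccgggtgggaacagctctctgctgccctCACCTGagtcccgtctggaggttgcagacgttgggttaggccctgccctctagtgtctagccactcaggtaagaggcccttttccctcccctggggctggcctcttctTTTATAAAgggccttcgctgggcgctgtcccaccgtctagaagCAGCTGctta
Krt18: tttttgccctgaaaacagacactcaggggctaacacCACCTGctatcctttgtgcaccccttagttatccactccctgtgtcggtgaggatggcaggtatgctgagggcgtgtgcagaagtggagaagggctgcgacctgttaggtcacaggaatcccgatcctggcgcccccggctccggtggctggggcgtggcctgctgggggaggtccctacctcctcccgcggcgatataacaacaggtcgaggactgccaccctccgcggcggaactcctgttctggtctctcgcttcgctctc
Krt7: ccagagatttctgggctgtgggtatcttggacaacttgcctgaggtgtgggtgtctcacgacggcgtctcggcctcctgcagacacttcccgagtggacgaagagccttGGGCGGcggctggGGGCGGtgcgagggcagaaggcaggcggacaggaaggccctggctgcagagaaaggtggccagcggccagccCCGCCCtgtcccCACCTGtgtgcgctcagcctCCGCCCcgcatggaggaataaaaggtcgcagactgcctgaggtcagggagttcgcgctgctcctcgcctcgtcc
The Krt8 window held 3 E-boxes, 1 GATA motif and 2 overlapping TATA box matches on opposite strands. These TATA box matches began at positions -3 and -1 from the start site of the window, and their use was not tested. The Krt18 window held 1 E-box and none of the other motifs. The Krt7 window held 1 E-box and 4 GC boxes. Among all 32851 promoter windows of this length, 72.3% held an E-box, 11.2% the GATA motif, 13.6% the TATA box and 35.7% the GC box, so an E-box in a window is common. The GC content was 58.0% for Krt8, 61.3% for Krt18 and 66.3% for Krt7, against a median of 52.7% over all windows. These matches describe letters in the reference sequence, and no binding was measured.

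Krt8, the type II chain of the first embryonic keratin pair, gave a signal of 5934 with dox and 1095 without dox at its brightest probe set. Its other probe sets read 5434 with dox and 1083 without dox, and 5312 with dox and 1003 without dox. All 3 probe sets were thus about equally bright and were high with dox, with log2 differences of 2.42, 2.31 and 2.39. The brightest was 5.35-fold higher with dox. The dimmer pair of probe sets carry a suffix (_x_at) by which the manufacturer marks probes that may also match other transcripts, and the brightest does not carry it. Of the 11794 genes past the signal filter, 154 had a larger positive difference than Krt8.

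Krt18, the type I partner of Krt8, had a signal of 3467 with dox and 969 without dox by its only probe set, 3.53-fold higher with dox (log2 difference 1.82). The difference of Krt8 exceeded that of Krt18 by 0.60 log2 units. Probe sets of the same gene scattered around their gene's mean with a pooled SD of 0.26 for mean signals of 500 or more and 0.48 below that, and for a gap between a pair of bright probe sets this gives an SD of 0.37. That spread covers probe effects and noise within these arrays, not variation between cultures. On the far side of Krt8 the next gene, Krt78, was dim with 36.3 with dox and 36.0 without dox. On the far side of Krt18 the translation factor gene Eif4b had 4540 with dox and 5301 without dox, a log2 difference of -0.22. The neighbouring keratin pair was therefore high with dox while Eif4b differed little. The signals of Krt78 lay below both array medians and cannot be told from background, so its difference could not be judged.

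Krt19, a small type I keratin of simple epithelia, had a signal of 305 with dox and 105 without dox, 2.66-fold higher with dox (log2 difference 1.41). It passed the signal filter only through the dox array, so the size of its difference leans on a signal below the array median without dox, and with a filter on both arrays it was not kept. Krt7, a type II keratin of ducts and trophoblast, had 63.9 with dox and 67.4 without dox, below the median of either array. The table holds no detection calls, so it cannot be said whether Krt7 was detected at all.

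**Figure D1:**
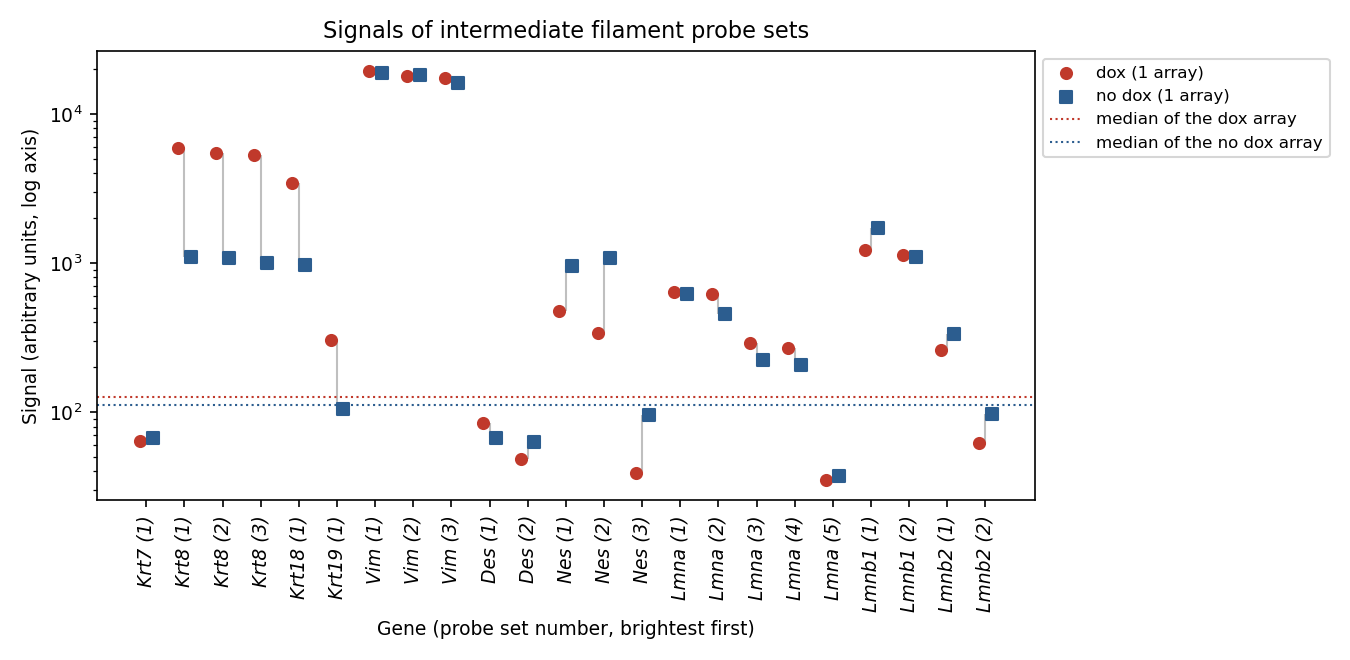
Signal of each of the 23 probe sets (log axis, arbitrary units) with dox (red circles) and without dox (blue squares), numbered from the brightest within each gene, with dotted lines at the array medians of 127 and 112. The Krt8, Krt18 and Krt19 probe sets are higher with dox, the Nes probe sets are lower, and Vim lies near the top of both arrays.

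Of 48 keratin genes, 24 on chromosome 11 (the type I cluster) and 24 on chromosome 15 (the type II cluster with Krt18), 18 passed the signal filter. Of these 18 only Krt8, Krt18 and Krt19 had a 2-fold or larger positive difference, and none was lower to that extent. Over all genes past the filter these shares were 5.69% and 2.06%. Krt19 passed only through the dox array and so had to be higher. Krt5, a type II keratin of basal epithelium, had 281 with dox and 194 without dox, a log2 difference of 0.50. The other 14 keratins that passed lay within 2-fold.

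Vim, the filament gene of mesenchyme and endothelium, was bright on both arrays. Its probe sets read 19349 with dox and 18915 without dox, 18067 with dox and 18271 without dox, and 17366 with dox and 16107 without dox. The log2 differences were 0.03, -0.02 and 0.11, so the probe sets did not share a direction and the arrays were nearly even. The highest signal on the arrays was 22539 with dox and 22018 without dox, and saturation could not be judged from this table. Among the genes with a mean signal of at least 15000 the log2 differences had an SD of 0.07, against 0.65 over all genes past the filter, so the brightest probe sets differed less between the arrays in general.

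Des, the muscle member of the same filament type, was dim. Its probe sets read 84.3 with dox and 67.5 without dox, and 48.6 with dox and 62.9 without dox, with log2 differences of 0.27 and -0.29. All of these signals lay below the array medians and the probe sets went opposite ways, so no difference of Des could be made out. In the same samples the markers of cardiac and skeletal muscle had a summed signal of 9417 with dox and 3233 without dox over 16 genes. Of the 10 past the filter 7 were higher with dox by 2-fold or more, as were 5.69% of all genes past it. Of these 7, 4 (Nebl, Myl4, Myl7 and Myh7) passed only through the dox array and so had to be higher, and of the 6 genes past the filter on both arrays 3 were 2-fold or more higher, with a median log2 difference of 1.08. The 3 with the largest difference were the Z-disc gene Nebl, the myosin light chain gene Myl4 and the troponin T gene Tnnt2. Nebl had 379 with dox and 1, the floor of the table, without dox. Its probe sets past the filter gave log2 differences of 4.54 and 1.62. Myl4 had 674 with dox and 31.0 without dox. Tnnt2 had 1469 with dox and 122 without dox, and its probe sets past the filter gave 3.43 and 2.89.

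Nes, whose long protein co-assembles with vimentin, was lower with dox by every probe set. The brightest read 478 with dox and 953 without dox, a log2 difference of -0.97 that stops just short of 2-fold. A nearly equally bright probe set read 339 with dox and 1073 without dox, 3.07-fold lower with dox (log2 difference -1.62). The dimmest read 38.8 with dox and 95.2 without dox, a log2 difference of -1.02, and lay below the signal filter. By the brightest probe set Nes is within 2-fold, and it counts as 2-fold lower under the mean of its probe sets past the filter (-1.29) and when the arrays are brought to the same median (-1.15) or the same distribution (-1.07). Of the 11794 genes past the filter, 263 had a more negative difference than the brightest Nes probe set.

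Neural progenitor markers, looked at because Nes is also a gene of neural progenitors, did not share that direction as a list. Of 11 measured, 6 passed the filter, 1 was 2-fold or more higher with dox and none was 2-fold lower, with a median log2 difference of 0.10 and summed signals of 3027 with dox and 2559 without dox. The brain lipid-binding protein gene Fabp7 (584 with dox and 96.9 without dox) was the higher gene and passed only through the dox array. The adhesion molecule gene Ncam1 differed by 0.88, with probe sets past the filter from -0.26, and the eye and brain factor gene Pax6 by -0.67. The neural factor genes Sox1 and Olig2 were at the floor of 1 with dox, against 78.6 and 1.9 without dox. Both lay below the filter, and the probe sets of Sox1 went opposite ways (-2.48 and 1.49). The 12 endothelial markers all passed the filter on both arrays, with a median of -0.06. Their summed signals were 54851 with dox and 58383 without dox. The list includes Kdr and Tek, which encode the receptors used for the sort, so the presence of these genes follows from the sort. The tight junction gene Cldn5 was 2.63-fold lower with dox, the guidance receptor gene Robo4 2.65-fold higher, and the junction gene Esam differed by -0.35.

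**Figure D2:**
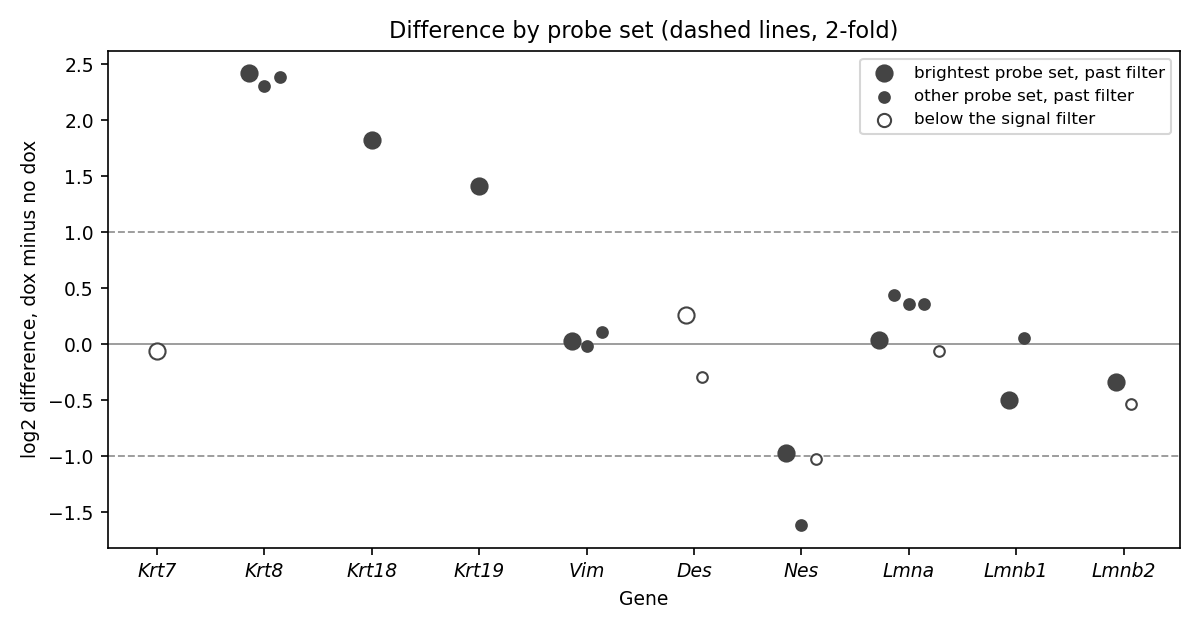
The log2 difference, dox minus no dox, of each probe set, with the brightest of each gene as a large point and probe sets below the signal filter open. The 5 probe sets of Krt8, Krt18 and Krt19 lie above the upper 2-fold line, the 3 of Nes lie around or below the lower line, and those of Vim, Des and the lamins lie between the lines.

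The lamins stayed within 2-fold. Lmna, the source of lamins A and C, had signals of 639 with dox and 620 without dox at its brightest probe set (log2 difference 0.04). Its other probe sets past the filter read 623 with dox and 456 without dox, 293 with dox and 225 without dox, and 269 with dox and 206 without dox. These gave log2 differences of 0.44, 0.36 and 0.36, so 4 of 4 past the filter were higher with dox by some amount, against a spread between probe sets of 0.26 for the brighter pair and 0.48 for the dimmer pair. The brightest was on the lower side with either scaling of the arrays (-0.14 and -0.04). The dimmest probe set read 35.1 with dox and 37.2 without dox, far below the medians.

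Lmnb1, the B-type lamin most tied to dividing cells, had 1222 with dox and 1727 without dox at its brightest probe set (log2 difference -0.49), but 1139 with dox and 1096 without dox at the other (0.05). The probe sets thus disagreed by 0.55 log2 units and gave no shared direction. Lmnb2, the other B-type lamin, had 261 with dox and 335 without dox (log2 difference -0.34), and a dimmer probe set below the filter read 62.5 with dox and 97.6 without dox (-0.53). Of 11 measured proliferation genes, all of which passed the filter, none reached 2-fold and 11 were lower with dox by some amount, as were 44.4% of all genes past the filter, with a median of -0.35 and summed signals of 60000 with dox and 77035 without dox. The mitotic kinase genes Aurkb (-0.77), Plk1 (-0.76) and Bub1 (-0.57) differed most. Their part in the B-type lamin values was not tested.

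Counted together, 8 of the 10 genes passed the signal filter. Of these, 3 had a positive difference of 2-fold or more, none was 2-fold or more lower by its brightest probe set, and 5 lay within 2-fold. The shares over all 11794 genes past the filter were 5.69% in the positive direction and 2.06% in the negative one. In the brighter class, 4.3% of genes with a mean signal of 500 or more, the class of Krt8 and Krt18, were 2-fold or more higher, 1.61% of that class, which holds Nes, were lower to that extent, and 8.56% of dimmer genes, the class of Krt19, were higher. The 10 genes were named with earlier results of these data known, and Krt19 passed only through the dox array, so the count is a description and no more. Krt8 was also past 4-fold, as were 2.01% of all genes. The median log2 difference of the 8 genes was 0.04, against 0.05 over all genes past the filter, so the group did not move one way. With the arrays scaled to the same median these medians were -0.14 and -0.13. By probe sets, 5 of 17 past the filter had a positive difference of 2-fold or more and 1 a negative one, while the shares of all named probe sets past the filter were 5.59% and 2.12%.

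**Figure D3:**
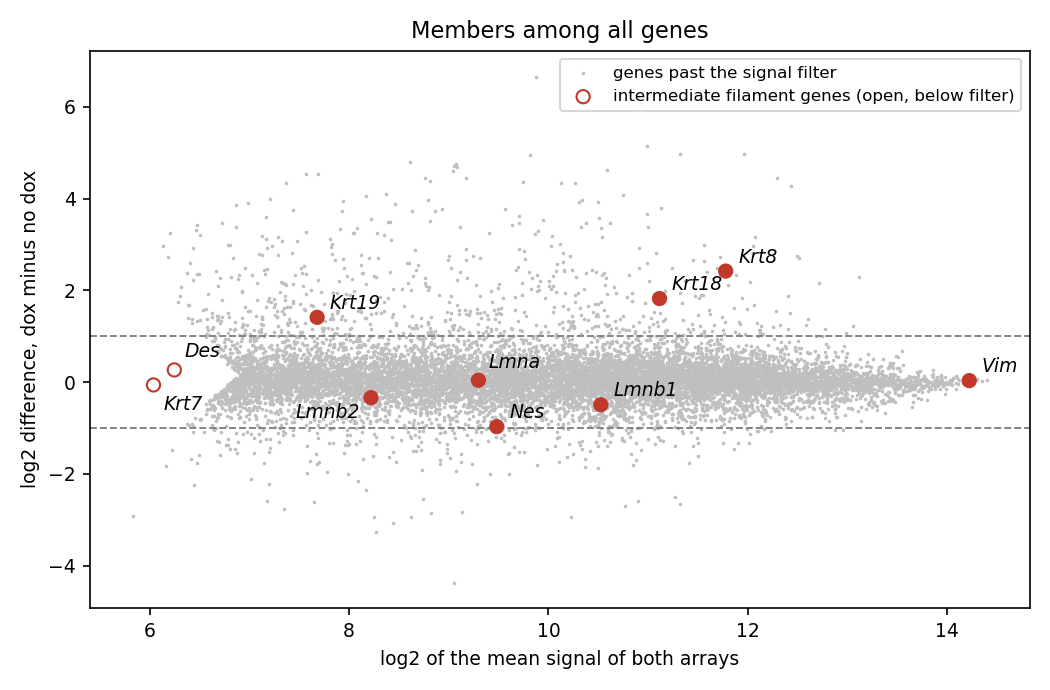
The log2 difference, dox minus no dox, of every gene past the signal filter (grey) against the log2 of its mean signal, with the 10 intermediate filament genes in red and the 2 below the filter open. Krt8, Krt18 and Krt19 lie above the upper 2-fold line with 5.69% of all genes, and Vim sits at the bright end, where differences are small.

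Other intermediate filament genes showed little. Of 25 listed genes, all on the array, 9 passed the filter, 1 was 2-fold or more higher with dox and none lower, with a median of -0.07. The higher gene was Sync (syncoilin, a partner of desmin filaments in muscle), at 821 with dox and 283 without dox, although its probe sets past the filter ranged from -0.71 to 1.49. Ina, an internexin of neurons, had probe sets past the filter that gave -0.48 and 0.33, so they went opposite ways. The others that passed were keratins and Bfsp1, a lens filament gene, and 16 genes, among them the neurofilament genes, lay below the filter.

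Genes of the plakins and desmosomes, which anchor keratin and desmin filaments to junctions, were higher with dox in part. Of 16 measured, 11 passed the filter. Of these, 4 were higher with dox by 2-fold or more and none was lower by as much. Over all genes past the filter these shares were 5.69% and 2.06%. The list median was 0.27, and 0.09 with the arrays scaled to the same median. Dsp, which encodes desmoplakin, the protein that ties filaments to the desmosome, had 6329 with dox and 1250 without dox, 5.01-fold higher, and its other probe set past the filter gave a log2 difference of 2.24. Dsg2, the desmoglein of simple epithelia and heart, had 898 with dox and 146 without dox, 5.64-fold higher, although its 4 probe sets past the filter ranged from 0.01 to 2.50. Pkp2, the plakophilin of simple epithelia and heart, had 2893 with dox and 1055 without dox, 2.72-fold higher, with probe sets past the filter from 0.31 to 1.44. The remaining one, the junction gene Perp (357 with dox and 128 without dox), was named after its value was seen. Jup (plakoglobin) and Pkp1, likewise named with knowledge of their values, lay within 2-fold by their only probe sets, with log2 differences of -0.31 and -0.74.

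Genes of the nuclear lamina and envelope stayed near even, as the lamins did. Of 16 measured, 15 passed, 1 was 2-fold or more higher and none lower, with a median of 0.13. The higher one was Syne1, a giant protein that links the nucleus to the cytoskeleton (355 with dox and 115 without dox), by the only one of its 3 probe sets past the filter. Banf1, which bridges DNA and the lamina, was lower with dox without reaching 2-fold (2805 with dox and 5219 without dox), and its 3 probe sets gave -0.95 to -0.54. Lemd3, an inner membrane protein that binds lamins, differed by 0.54. All 6 lamin processing genes passed and lay within 2-fold, with a median of 0.13. With the arrays scaled to the same median the medians of the envelope and processing lists were -0.05 and -0.05. Among the processing genes Zmpste24, the protease that matures prelamin A, differed by 0.36 and Rce1 by 0.30, while the probe sets of Narf past the filter gave 0.15 and -0.19.

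Among 11 measured filament chaperones and partners, 9 passed the filter, 1 was 2-fold or more higher and 1 lower, with a median of 0.00. Cryab, the small heat shock protein that protects desmin and other filaments, had 1764 with dox and 41.7 without dox, passed only through the dox array, and its other probe set past the filter gave 4.53. Hspb1, the small heat shock protein of keratin filaments, had probe sets past the filter that gave -0.28 and 3.43, so its direction was not settled. Mtm1, a phosphatase that binds desmin, had 622 with dox and 2022 without dox, 3.19-fold lower, but its 3 probe sets ranged from -2.05 to 0.41.

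Markers of epithelial cells were not higher with dox as a list. Of 12 measured, 5 passed the filter and none was 2-fold or more higher or lower, with a median of -0.11 and summed signals of 3327 with dox and 3814 without dox. The defining markers Cdh1 (63.8 with dox and 110 without dox) and Epcam (37.4 with dox and 57.6 without dox), looked up after their values were seen, lay below the median on both arrays, and St14 was at the floor without dox. The claudin gene Cldn3 differed by -0.74, the occludin gene Ocln by 0.76 and the epithelial factor gene Grhl2 by 0.23. No endoderm or trophectoderm marker that passed was past 2-fold. The medians of these lists were -0.01 and 0.02. Summed signals were 13175 with dox and 12706 without dox for endoderm, and 4456 with dox and 3376 without dox for trophectoderm. Sox17 alone gave 10010 of the endoderm sum with dox and 9431 without dox. Hand1 gave 2501 of the trophectoderm sum with dox and 1517 without dox, so each sum leans on a single gene. The genes of largest difference were Amn (0.71), Rbp4 (-0.26) and Apoa1 (-0.18) for endoderm, and Gata3 (0.82), Tfap2c (-0.81) and Hand1 (0.72) for trophectoderm. Of these, Amn passed only through the dox array and so had to be higher. Rbp4 and Tfap2c passed only through the array without dox, so their direction leans on the filter.

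Markers of mesothelium, a keratin-bearing epithelium of mesodermal origin, had summed signals of 2997 with dox and 825 without dox over 9 genes. Of the 6 that passed the filter 5 were 2-fold or more higher and 1 lower, against 5.69% and 2.06% of all genes past it. However, 4 of the 5 (Wt1, Upk3b, Upk1b and Tcf21) passed only through the dox array and so had to be higher. The genes past the filter on both arrays were 1 higher and 1 lower, with a median log2 difference of 0.05. Wt1, a zinc finger factor of mesothelium and epicardium, had 1118 with dox and 35.9 without dox, and Upk3b, a uroplakin of mesothelium, had 475 with dox and 15.8 without dox. Tcf21, a bHLH factor of epicardium and mesenchyme, had 523 with dox and 67.1 without dox, but its other probe set past the filter gave -0.53. The remaining higher genes, Upk1b (1.38) and Lrrn4 (1.39), and the lower one, Gpm6a (-1.28), are named here with their values already known. The mesothelin gene Msln (103 with dox and 105 without dox) lay below the filter, and Aldh1a2 was at the floor of 1 on both arrays.

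The smooth muscle and mesenchyme markers had summed signals of 54419 with dox and 15729 without dox over 14 genes. Of the 13 past the filter, 10 were higher by 2-fold or more and none was lower by as much. Over all genes past the filter these shares were 5.69% and 2.06%. Of these 10, 4 (Tagln, Lum, Cnn1 and Col1a1) passed only through the dox array and so had to be higher, and of the 9 genes past the filter on both arrays 6 were 2-fold or more higher, with a median log2 difference of 2.27. Tagln, an actin-binding protein (3960 with dox and 96.7 without dox), the proteoglycan gene Lum (1029 with dox and 26.8 without dox) and the collagen gene Col3a1 (10557 with dox and 530 without dox) differed most. Blood markers were lower in part, with summed signals of 7995 with dox and 14562 without dox. Of the 8 past the filter, 4 were lower by 2-fold or more and none was higher by as much. Over all genes past the filter these shares were 2.06% and 5.69%. The lower markers were Hbb-bh1 (-2.58), Mpo (-1.47), Laptm5 (-1.23) and Hba-x (2.01-fold lower). Hba-x was named after its value was seen and was past the filter only without dox. Mesp1 itself had 10977 with dox and 2433 without dox. In bulk samples a change in the number of cells of a type and a change in RNA per cell cannot be told apart, and the part of these marker lists in the keratin, desmosome and Nes values was not tested.

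**Figure D4:**
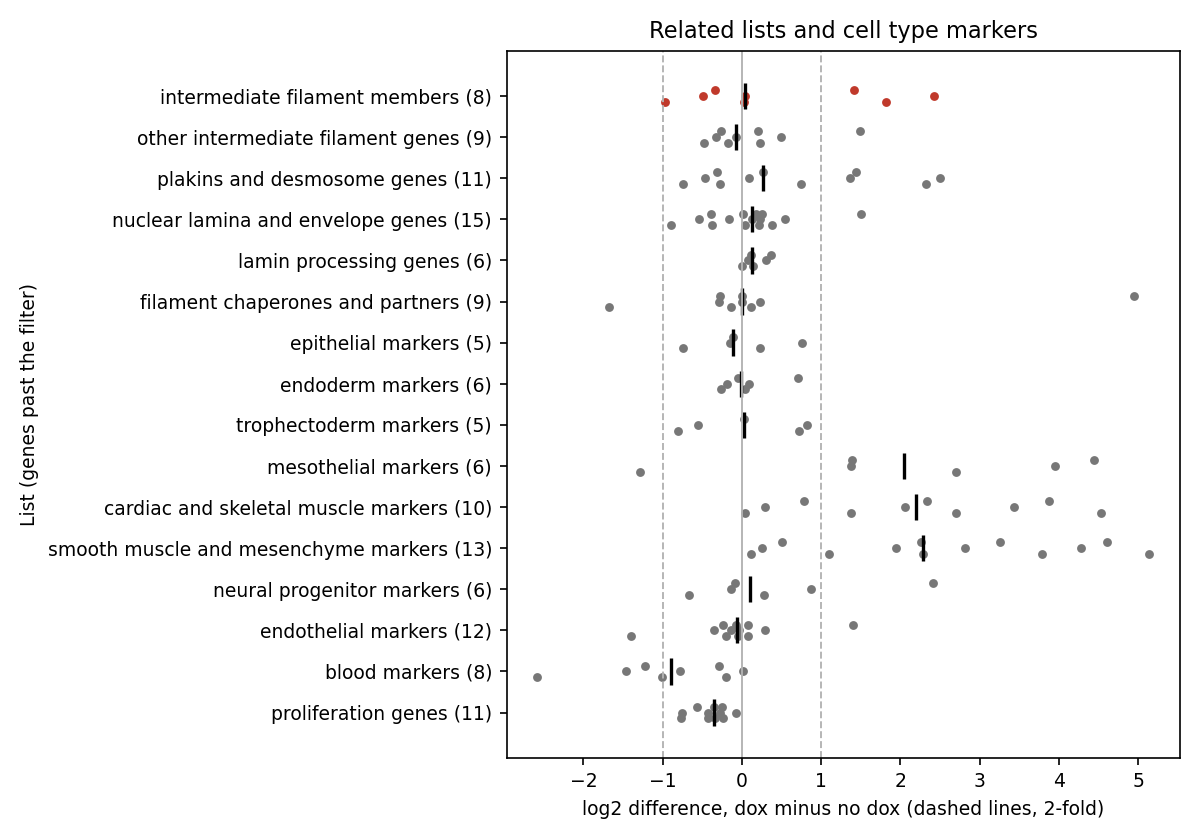
The log2 difference, dox minus no dox, of each gene past the signal filter in the 10 intermediate filament genes (red), related lists and cell type markers (grey), with a bar at each list's median and the number of genes in brackets. The medians of the mesothelial (2.04), cardiac and skeletal muscle (2.20) and smooth muscle and mesenchyme (2.29) lists include genes that passed only through the dox array, and over genes past the filter on both arrays they are 0.05, 1.08 and 2.27.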

How the data were processed

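The data are signal intensities of 45037 probe sets on 2 Affymetrix 3' arrays, 1 per group, prepared from 100 ng of total RNA per the labels' protocols. The intensity values were deposited by the authors on a linear scale with a floor of 1, reached by 1102 probe sets with dox and 1165 without dox. For their summary and scaling no method is given in the sources used here. Probe sets were named through the platform annotation. Of these, 34945 had 1 gene symbol, 932 had several and 9160 had none, and those with several or none were not used as genes. The filter left 11794 of 18193 genes, and medians of lists and percentages refer to them.

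A log2 difference of 1 or more in size (2-fold) is a fixed size and not a test, since no group has a replicate. For each related list or marker list the text names the 3 genes with the largest difference past the filter. Members and lists were chosen with earlier results of these data known. The calculation was run on simulated data with large set differences and little noise, which checks the code and not the reliability of any call. Calculations used Python 3.11.15 with pandas 2.3.3 and numpy 2.4.6. The number of arrays limits the precision of every value. Promoter sequences and gene order come from RefSeq, assembly GRCm38.p6. The alternatives were 2 other pseudocounts, 2 scalings, 2 ways of choosing probe sets and 3 filters.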

Additional observations from a re-analysis of the deposited data

How the results depend on the processing

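Of 88 alternative values of the 10 genes' own log2 differences, 86 stayed within the spread between probe sets of a gene. None of the differences past 2-fold changed sign. Part of this count was fixed in advance. The 3 filters could not change a gene's own difference, which was read from its brightest probe set whether or not that passed. The mean over probe sets could not change Krt18 or Krt19, each with 1 probe set. Krt8 stayed between 2.24 and 2.44, Krt18 between 1.64 and 1.84 and Krt19 between 1.13 and 1.53. The exceptions came with the mean over probe sets past the filter, which gave -1.29 for Nes and -0.22 for Lmnb1. The number of the 10 genes 2-fold or more lower was 1 in place of 0, that gene being Nes, with median scaling, with quantile normalization and with that mean. The number 2-fold or more higher was 2 when the filter applied to both arrays or stood at the 75th percentile, which Krt19 did not pass, and 3 otherwise.

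Over all genes, 417 were higher with a filter on both arrays and 350 with one at the 75th percentile, and 402 were lower with median scaling, 372 without a filter and 135 with the filter at the 75th percentile. The filter at the 75th percentile moved the median of smooth muscle and mesenchyme markers to 2.814 and that of blood markers to -1.347. The mesothelial median was 1.385 with the mean over probe sets or without _x_at and _s_at probe sets, 1.388 without a filter, 0.05409 with a filter on both arrays and 4.449 at the 75th percentile, so it rested on few genes. The cardiac and skeletal muscle median was 1.727 with a pseudocount of 64, 0.8573 without a filter, 1.083 with a filter on both arrays and 1.719 at the 75th percentile. Apart from the filters, which change the genes counted, the cause was not tested. No paired analysis was possible because each group has 1 array. Without detection calls, values below the array medians, such as those of Krt7 and Des, cannot be told from background.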
